A study of Mus musculus with 48 samples.

Results

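miRNAs of the cortex were compared with those of the whole brain in WT mice of 10 months, on 3 cortex and 3 whole brain arrays out of the 24 miRNA arrays of the series, which has 48 samples with the mRNA arrays. The mice were of the C57BL/6J strain without the Tg2576 transgene, a mutant human APP gene, and no treatment is given for them. The same contrast was also made in WT mice of 17 months and in Tg2576 mice of 10 and 17 months. Each of these groups had 3 arrays of each tissue, and changes of the tissue difference with age and genotype were tested. Total RNA of each sample was hybridized to 1 single-colour array, and the labels do not say whether a cortex and a whole brain came from the same animal. Of the 1023 mouse miRNAs on the array, the 316 that were detected on 2 or more arrays of a tissue were kept. Detected means that at least 1 probe was well above background, and 282 miRNAs were detected on all 6 arrays. The filter was passed through cortex alone by 14 miRNAs and through whole brain alone by 6. Values are signals divided by the 75th percentile of their array, on the log2 scale, with a floor of -5.67 for dim signals, and a difference is always cortex minus whole brain.

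miRNAs are short RNAs cut from hairpin precursors, and they guide Argonaute proteins to mRNAs that pair with the seed near the 5′ end of the miRNA. Many of them are made in 1 cell type, so that their levels in a piece of brain follow the cells it holds. Neurons are rich in miR-124, miR-128 and miR-9, oligodendrocytes in miR-219 and miR-338, the choroid plexus in miR-204, ciliated epithelium in miR-34b and miR-34c, red blood cells in miR-451 and miR-144, and endocrine cells in miR-375 and miR-7. In bulk samples, fewer cells of a type and less RNA per cell cannot be told apart.

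The mature sequences of the miRNAs on which the results turn follow, 5′ to 3′, with the seed (bases 2 to 8) in capitals. They are from RefSeq on build GRCm38.p6. Names on the array without an arm were matched to the arm that miRBase later gave them, and 19 of 23 names looked up had an entry, among them 5 of the 9 miRNAs that passed the test below. miR-328, miR-3470a, miR-129-1-3p and miR-299* are named only. The first set is shown because its members differed most clearly between the tissues or belong to the same hairpin or seed. miR-211* of the array is miR-211-3p (chr7:64205868-64205888, plus strand), cut from the same hairpin as miR-211-5p (chr7:64205831-64205852, plus strand). miR-211-5p shares its seed with miR-204-5p (chr19:22750610-22750631, plus strand), while the seed of miR-211-3p is another.
miR-211-3p: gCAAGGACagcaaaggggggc
miR-211-5p: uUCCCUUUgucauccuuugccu
miR-204-5p: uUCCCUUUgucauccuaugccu
miR-690: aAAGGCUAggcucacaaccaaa
miR-193b-3p: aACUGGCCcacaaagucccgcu
miR-139-5p: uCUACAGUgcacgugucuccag
miR-125a-5p: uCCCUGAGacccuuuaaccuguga
The second set is shown because its members were higher in each cortex than in each whole brain or lie beside such a miRNA. miR-132-3p (chr11:75173723-75173744, plus strand) and miR-212-3p (chr11:75173443-75173464, plus strand) start 280 bases apart and share a seed. miR-128-3p comes from 2 hairpins, at chr1:128202404-128202424 (plus strand) and chr9:112118644-112118664 (minus strand).
miR-132-3p: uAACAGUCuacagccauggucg
miR-212-3p: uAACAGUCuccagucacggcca
miR-128-3p: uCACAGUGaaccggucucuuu
The third set is shown because it holds miRNAs of red blood cells, epithelia and endocrine cells that varied among samples of 1 tissue. miR-451a and miR-144-3p start 139 bases apart on chromosome 11. The miR-200 family falls into 2 seeds, AACACUG in miR-200a-3p and miR-141-3p and AAUACUG in miR-200b-3p, miR-200c-3p and miR-429-3p. miR-7a-5p and miR-7b-5p share a seed.
miR-451a: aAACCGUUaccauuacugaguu
miR-144-3p: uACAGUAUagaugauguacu
miR-200a-3p: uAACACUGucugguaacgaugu
miR-141-3p: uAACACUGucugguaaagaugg
miR-200b-3p: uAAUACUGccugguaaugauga
miR-200c-3p: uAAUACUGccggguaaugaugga
miR-429-3p: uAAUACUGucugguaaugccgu
miR-7a-5p: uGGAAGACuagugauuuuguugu
miR-7b-5p: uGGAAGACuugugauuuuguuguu

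The tissue labels were checked on the mRNA arrays that carry the same tissue and replicate labels, and whether they were made from the same RNA is not stated. Of all 39470 mRNA probes compared, 14.9% were higher in each cortex than in each whole brain and 16.6% were lower. Of 11 marker genes of cortex, such as Tbr1 and Neurod6, 5 were higher in each cortex and 0 were lower, with a median difference of 0.23. Of the 8 marker genes of the striatum, such as Drd1 and Penk, 6 were higher in each cortex as well, with a median difference of 0.36. Marker genes of midbrain dopamine neurons were lower in each cortex for 5 of 7, with a median of -1.46, and marker genes of the cerebellum for 5 of 12, with a median of -0.66.

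3 libraries stood apart on the mRNA arrays, and 1 of them went against its label. The library labelled cortex replicate 1 held transcripts of hypothalamic neurons at whole brain levels. Pmch, the precursor of melanin-concentrating hormone, was at 3.44, -3.65 and -3.55 in cortex 1, 2 and 3 and at 3.27, 3.47 and 3.38 in whole brain 1, 2 and 3. Hcrt, the orexin precursor, was at 3.34 in cortex 1 and at -3.02 and -3.15 in cortex 2 and 3. Whole brain replicate 1 was high in olfactory bulb markers, with Omp, the olfactory marker protein, at 0.58 against -3.04 and -2.08 in whole brain 2 and 3. It was low in the cerebellar granule cell gene Gabra6, at -2.92 against 0.29 and -0.50. Whole brain replicate 3 was high in pituitary genes, with prolactin (Prl) at 7.38 against -0.68 and 4.55 in whole brain 1 and 2. In cortex 1, 2 and 3 Prl was at 0.96, 3.74 and -0.28, so cortex 2 was above whole brain 1. Results are therefore also given without the 3 libraries that stood apart.

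Most miRNAs differed little between the tissues. Of the 316 tested, 50 were at the floor on all 6 arrays, and 199 of the other 266 differed by less than 0.25 on the log2 scale. The median difference was 0. limma with Benjamini-Hochberg adjustment over the 316 miRNAs called 9 at an adjusted p under 0.05, which is 2.85% of them, 6 higher and 3 lower in cortex. At an unadjusted p under 0.05 there were 26 higher (8.23%) and 26 lower (8.23%). Each cortex array was above each whole brain array for 30 miRNAs (9.49%) and below for 40 (12.7%). The plot of difference against level shows these miRNAs at all levels, with the largest differences on the lower side.

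**Figure D1:**
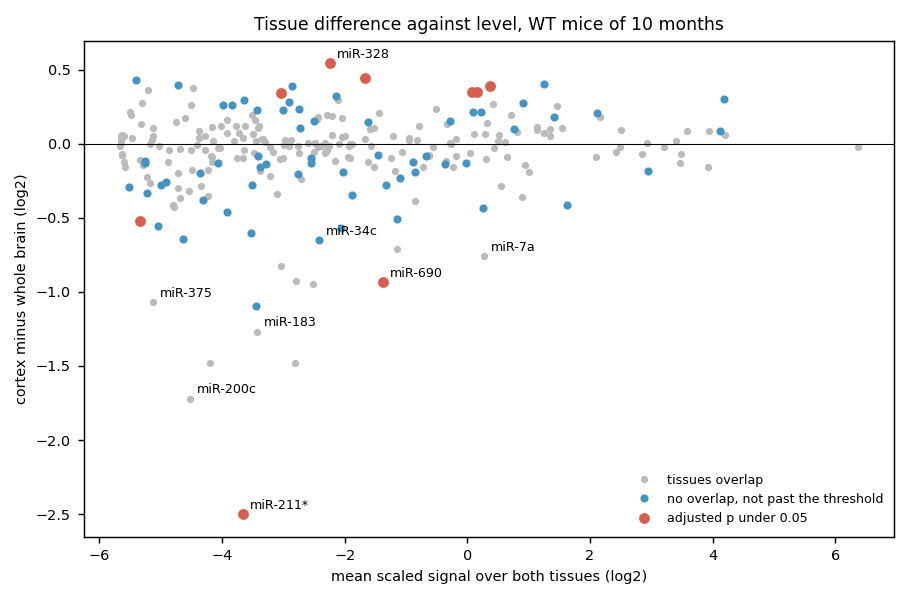
Difference between cortex and whole brain (log2, vertical) against the mean scaled signal over both tissues (log2, horizontal) for the 266 miRNAs that were not at the floor on all 6 arrays. Red points are the 9 miRNAs with an adjusted p under 0.05, blue points the other miRNAs whose tissues did not overlap, and grey points the rest, among them miR-200c at -1.72 and miR-183 at -1.27.

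miR-211*, the arm of the miR-211 hairpin opposite the usual guide strand, had the largest difference of all. It was at -4.66, -5.03 and -5.05 in the cortices and at -2.67, -2.36 and -2.21 in the whole brains. The whole brains were all higher, by 5.65-fold (difference -2.50, standard error 0.16, limma adjusted p = 0.00206). The other arm, listed as miR-211, was detected on 0 of the 6 arrays. miR-211 lies in the gene of the channel Trpm1, on the same strand, and on the mRNA arrays Trpm1 was at 0.887, 1.411 and 1.193 in the cortices and at 2.03, 1.80 and 1.62 in the whole brains. Trpm1 was also lower in each cortex, with a difference of -0.65. Other host genes went the other way from their miRNA, among them Spaca6 of miR-125a-5p and Hnrnpk of miR-7a.

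miR-690 was lower in cortex too, at -1.69, -1.83 and -2.04 against -1.07, -0.95 and -0.74 in whole brain. The tissues did not overlap and differed by 1.91-fold (difference -0.93, standard error 0.12, limma adjusted p = 0.0363). Its RefSeq entry at chr16:28599940-28599961 (minus strand) lies in Fgf12, whose mRNA differed by -0.06 with overlapping tissues. miR-3470a was dim, at -5.50, -5.63 and -5.67 in cortex, the last of these at the floor, and at -4.95, -5.14 and -5.14 in whole brain. Its difference was -0.52 (standard error 0.08, limma adjusted p = 0.0363).

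6 miRNAs were higher in cortex, by 1.27-fold to 1.46-fold. miR-328 was at -1.86, -2.04 and -2.03 in the cortices and at -2.48, -2.48 and -2.59 in the whole brains, a difference of 0.54 (standard error 0.07, limma adjusted p = 0.0363). miR-193b was at -1.51, -1.50 and -1.32 against -1.89, -1.90 and -1.86, a difference of 0.44. In both, the lowest cortex lay clearly above the highest whole brain. miR-129-1-3p, an arm of a hairpin abundant in neurons, was at 0.49, 0.63 and 0.55 in the cortices and at 0.21, 0.18 and 0.11 in the whole brains. miR-139-5p was at 0.27, 0.23 and 0.24 in the cortices and at -0.11, -0.16 and -0.06 in the whole brains. It lies in the phosphodiesterase gene Pde2a, whose mRNA differed by 0.15 with overlapping tissues.

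miR-125a-5p, a relative of the nematode timing miRNA lin-4, was at 0.34, 0.30 and 0.36 in the cortices and at 0.06, -0.05 and -0.05 in the whole brains. Its host gene Spaca6 differed the other way, by -0.17 with overlap. miR-299*, of the imprinted Dlk1-Dio3 cluster, was at -2.92, -2.80 and -2.87 against -3.25, -3.18 and -3.19. The differences of the last 4 were 0.39, 0.35, 0.35 and 0.34, with limma adjusted p between 0.0363 and 0.0406. All 6 miRNAs stood above whole brain in every cortex, and all 9 were detected on every array.

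**Figure D2:**
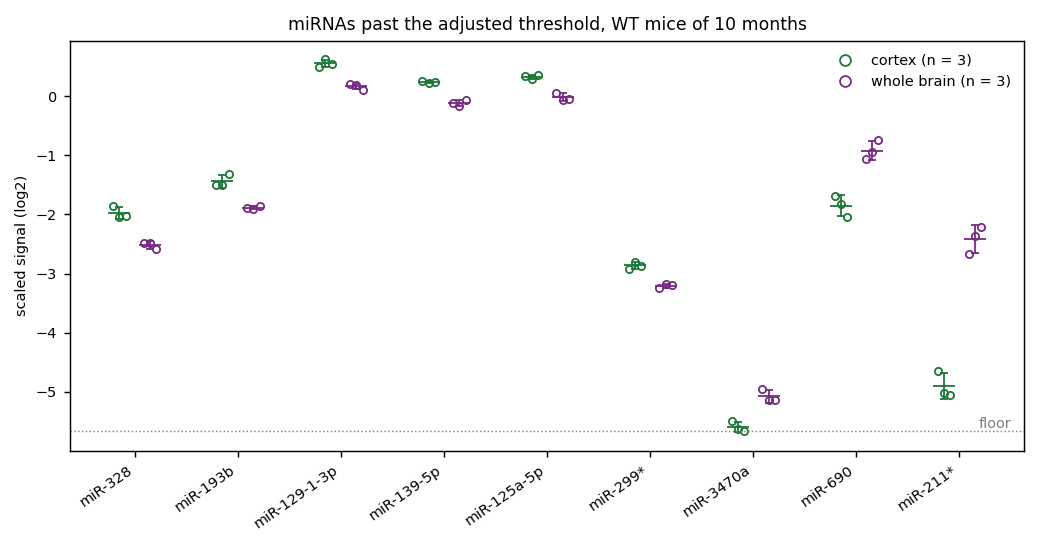
Scaled signal (log2, vertical) of the 9 miRNAs with an adjusted p under 0.05 on each of the 3 cortex (green) and 3 whole brain (purple) arrays, with the mean and SD as bars and the floor as a dotted line. No tissue overlaps the other in any of the 9, and miR-211* has the widest gap, from -4.66 to -2.67.

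These calls depended on single arrays, and the slide cannot be told apart from the tissue. Cortex 1 and 2 lay on slide 1, cortex 3 on slide 4 and the whole brains on slide 2, so no slide held both tissues of these mice. With the slide as a random block, 0 miRNAs were called by limma (14 at an unadjusted p under 0.05), and miR-211* had a difference of -2.52 at an adjusted p of 0.0766. Since the tissues lay on different slides, these 0 calls cannot tell a slide effect from a tissue difference. Leaving out any 1 of the 6 arrays left 1 call, miR-211*, except without cortex 3, which gave 20. Slide 2 also held 4 cortex arrays of 17 months (1 WT and 3 Tg2576), and against the 3 whole brains studied here they differed by -2.58 for miR-211* and by -1.63 for miR-690. miR-125a-5p overlapped there, at a difference of 0.03. These values share the whole brains on which the calls rest, and age and genotype differ in that contrast. Slide 4 held cortex 3 and 1 whole brain of WT mice of 17 months, with no replicate of either. Between them miR-211* differed by -2.19, miR-193b by 0.44, miR-129-1-3p by 0.31, miR-139-5p by 0.30 and miR-299* by 0.25. On slide 4 the other 4 were near 0, miR-690 at -0.02, miR-328 at 0.02, miR-125a-5p at 0.04 and miR-3470a at 0. For miR-3470a both arrays were at the floor, so its value compares nothing. Age differs in the slide 4 contrast as well. In WT mice the mean of miR-690 was -1.85 in cortex and -0.92 in whole brain at 10 months, and -2.74 and -1.81 at 17 months.

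Neuron-rich miRNAs leaned to cortex in the WT mice of 10 months. Of 18 tested members of the list, 14 were higher and 1 was lower on average, 3 were at the floor on all arrays, and 2 were called, miR-129-1-3p and miR-139-5p. The median was 0.10, beside 0 for all miRNAs tested. 5 members did not overlap, all higher in cortex, while 9.49% of all miRNAs were higher without overlap and 2.85% were called. Without cortex 1, 6 members (33.3%) were higher without overlap, beside 10.6% of all miRNAs. Without cortex 3 it was 10 members (55.6%) beside 27.6%, and without whole brain 1 it was 8 (44.4%) beside 13%. Without whole brain 3 it was 6 (33.3%) beside 12.1%. In the fits without cortex 3 and without whole brain 3, 1 member (5.56%) was lower without overlap, beside 18.7% and 15.9%. Among miRNAs that stay in the test, omitting an array can only keep or raise such numbers, so the rises add nothing to the lean. miR-128, which is made from the introns of R3hdm1 and Arpp21, was at 4.23, 4.40 and 4.37 in cortex and at 4.15, 3.96 and 3.997 in whole brain. Its difference was 0.30 (standard error 0.08, limma adjusted p = 0.186). The mRNAs of both host genes were higher in each cortex, R3hdm1 by 0.28 and Arpp21 by 0.35. miR-138-1* differed by 0.39 (limma adjusted p = 0.172), also without overlap. miR-124, made almost entirely in neurons, differed by 0.08 (limma adjusted p = 0.599), and miR-9 by 0.26 (limma adjusted p = 0.472), both with overlap. In the WT mice of 17 months and the Tg2576 mice of 10 and 17 months, the list median was 0.09, 0.02 and -0.04. Over all miRNAs tested it was 0, 0 and -0.03. In the last of these groups miR-9 was called lower in cortex (difference -0.53, limma adjusted p = 0.0132).

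The cluster of miR-132 and miR-212, whose transcription follows neuronal activity through the factor CREB, was higher in cortex for all 3 members tested. It had 0 calls, beside 2.85% of all miRNAs tested. miR-132 was at 1.46, 1.56 and 1.35 in the cortices and at 1.28, 0.93 and 0.95 in the whole brains. The tissues did not overlap, with a difference of 0.40 (standard error 0.12, limma adjusted p = 0.221). miR-212-3p and miR-212-5p both differed by 0.30 (limma adjusted p = 0.379 and 0.235), and of these miR-212-5p did not overlap. Among all miRNAs tested, 9.49% were higher in cortex without overlap. miR-30c, at 1.07, 1.004 and 1.05 in cortex and 0.75, 0.77 and 0.78 in whole brain, lay just outside the threshold (difference 0.28, limma adjusted p = 0.0501). It differed by 0.03 with overlap in the WT mice of 17 months and by 0.18 in the Tg2576 mice of 10 months. In the Tg2576 mice of 17 months, miR-30c (-0.25) and miR-212-3p (-0.45) were called lower in cortex (limma adjusted p = 0.0335 and 0.0183). The median of the miR-132 and miR-212 cluster was 0.21, 0.09 and -0.09 in these groups, in that order.

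miRNAs of oligodendrocytes were divided. miR-338-3p, which promotes their maturation, was at 1.34, 1.32 and 1.56 in cortex and at 1.62, 2.01 and 1.83 in whole brain (difference -0.41, limma adjusted p = 0.221). miR-219-3p differed by -0.35 (limma adjusted p = 0.233), and neither overlapped, beside 12.7% of all miRNAs tested that were lower without overlap. miR-219-5p, from the same precursor family, differed by 0.01 with overlap, and its sign turned in 4 of the 6 fits that left out an array. On the mRNA arrays, 3 of 10 myelin genes were lower in each cortex and 0 higher, beside 16.6% and 14.9% of all probes, with a median of -0.06.

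**Figure D3:**
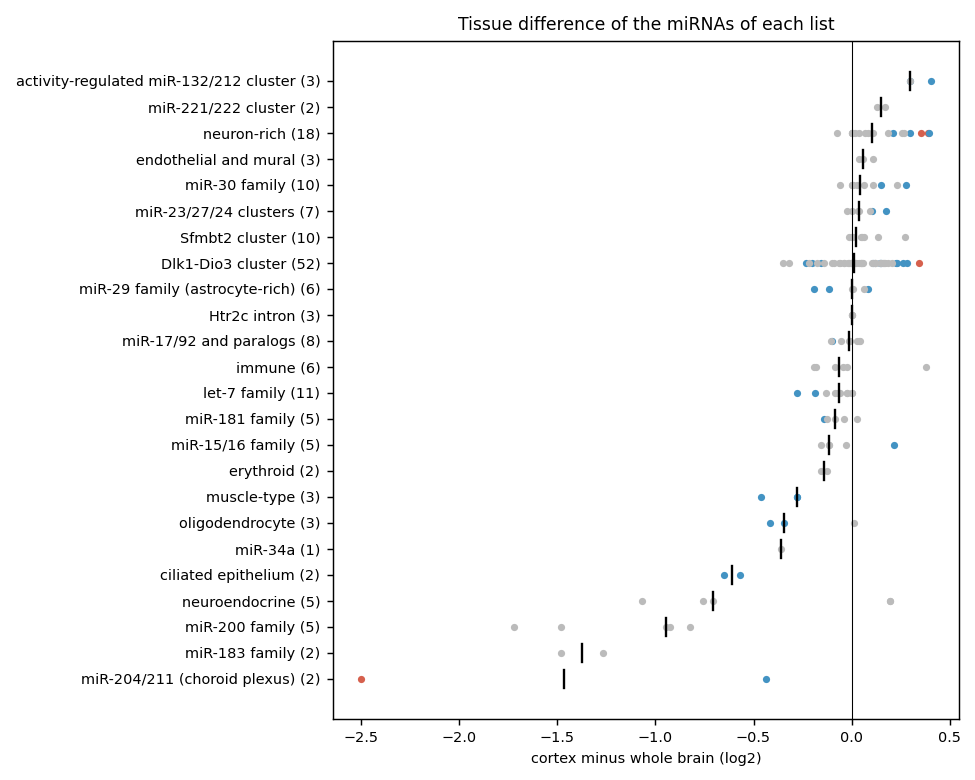
Difference between cortex and whole brain (log2, horizontal) of each miRNA tested in 24 lists (rows, with the number tested), with the median of a list as a black bar. Red points have an adjusted p under 0.05, blue points do not overlap between the tissues and grey points do, and the medians run from -1.47 for miR-204 and miR-211 to 0.30 for the cluster of miR-132 and miR-212.

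Several miRNAs of cells outside the cortex leaned to whole brain, with 0 calls apart from miR-211*, beside 2.85% called of all miRNAs tested. miR-204, of the choroid plexus, was at 0.43, 0.25 and -0.59 in cortex and at 0.44, 0.52 and 0.44 in whole brain (difference -0.44, limma adjusted p = 0.489). Cortex 3 was lowest, and the choroid plexus gene Ttr, which encodes transthyretin, was lowest in cortex 3 as well, at 5.85, 5.73 and 3.58 in the cortices. Unlike miR-204, Ttr was on average higher in cortex, by 0.63, with overlap. Of the 9 choroid plexus genes tested, 1 was lower in each cortex, Otx2 by -1.29, and 0 were higher. Their median difference was 0.29. Of all mRNA probes, 16.6% were lower and 14.9% higher in each cortex. The share of choroid plexus in these differences was not tested.

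miR-34c and miR-34b-5p, of ciliated epithelium, differed by -0.65 and -0.57 without overlap (limma adjusted p = 0.276 and 0.284). miR-34c was at -2.44, -2.62 and -3.18 in cortex and at -2.43, -1.997 and -1.87 in whole brain, so cortex 1 and whole brain 1 nearly met. The muscle-type miRNAs miR-133b, miR-1 and miR-133a were lower in each cortex, by -0.46, -0.28 and -0.28 (limma adjusted p between 0.175 and 0.235). Of all miRNAs tested, 12.7% were lower in each cortex. miR-34a differed by -0.36 (limma adjusted p = 0.347).

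The spread was mostly smaller among the whole brains, but a few miRNAs varied widely there. Over the 266 miRNAs not at the floor on all arrays, the median SD was 0.131 in cortex and 0.0816 in whole brain, and it was larger in whole brain for 84. The whole brains lay on slide 2 alone and the cortices on slides 1 and 4, so tissue and slide cannot be told apart in these SDs. The SD was above 1 for 10 miRNAs in whole brain and for 1 in cortex. Those 10 were the 5 of the miR-200 family, miR-183 and miR-96 of the miR-183 family, miR-375, miR-451 and miR-144. miR-200a was at 1.27, -5.29 and -2.13 in whole brain 1, 2 and 3 and at -2.52, -2.35 and -4.11 in the cortices. Its difference was -0.94 (standard error 1.65, limma adjusted p = 0.924), and without whole brain 1 it was 0.72. The other tested miRNAs of both these families differed by between -0.82 and -1.72 (limma adjusted p between 0.489 and 0.937). Omp ranked the whole brains in the same order, with replicate 1 highest and 2 lowest, and the share of olfactory bulb in these miRNAs was not tested.

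miR-375, of endocrine cells, was at the floor in the 3 cortices, at -5.67 and -5.39 in whole brain 1 and 2 and at -2.73 in whole brain 3, where prolactin was highest (difference -1.07, limma adjusted p = 0.565). The cortices at the floor included cortex 2, where Prl was at 3.74. miR-7a, also rich in the pituitary and hypothalamus, was at 0.46, -0.17 and -0.61 in the cortices and at 0.56, 0.36 and 1.04 in the whole brains (difference -0.76, limma adjusted p = 0.312). One hairpin of miR-7a lies in Hnrnpk, whose mRNA was higher in each cortex, by 0.33. miR-7b differed by -0.71 (limma adjusted p = 0.276). Among the cortices both were highest in cortex 1, the library with hypothalamic transcripts, and among the whole brains in whole brain 3. The part of these regions in miR-7 was not tested.

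miR-451, made in red blood cells, varied between samples of a tissue and little between same-numbered samples of both. It was at -1.40, -0.39 and 0.85 in cortex 1, 2 and 3 and at -1.34, -0.35 and 1.22 in whole brain 1, 2 and 3, a mean difference of -0.16 (standard error 0.83, limma adjusted p = 1). miR-144, of the same cluster, was at -5.67, -5.19 and -4.002 and at -5.67, -5.16 and -3.66. Hba-a1, an alpha globin gene, was at 4.47, 5.57 and 6.32 in the cortices and at 3.74, 5.01 and 6.14 in the whole brains on the mRNA arrays. Alas2, the erythroid enzyme of haem synthesis, was at -2.02, -0.75 and 0.12 and at -1.87, -0.69 and 0.64. On both assays the samples numbered 3 were highest and those numbered 1 lowest in either tissue.

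**Figure D4:**
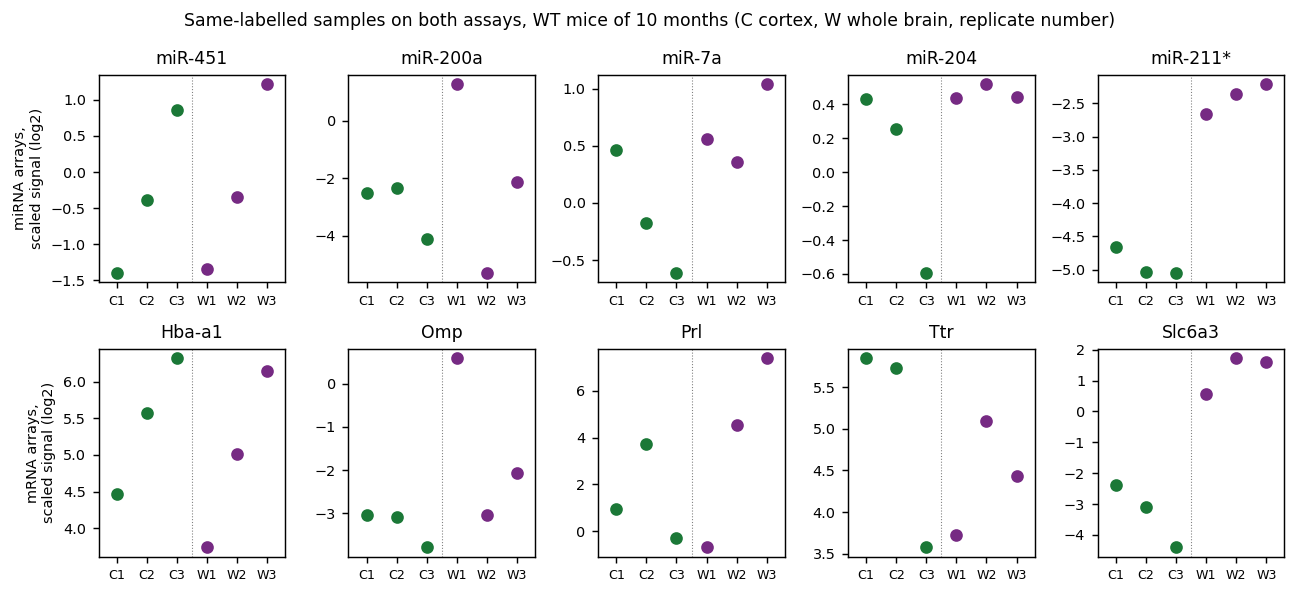
Scaled signal (log2, vertical) of 5 miRNAs (top) and 5 mRNAs (bottom) in the 6 samples of the same labels, 3 cortex (C, green) and 3 whole brain (W, purple). The miRNAs and genes were put side by side after their values were seen, and miR-451 and Hba-a1 follow the replicate number in both tissues, whereas miR-211* and the dopamine transporter Slc6a3 separate the tissues.

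The remaining lists held to within a narrow range. The let-7 family had 9 members lower and 0 higher in cortex among 11 tested, with a median of -0.07 and 0 calls. miR-98 differed by -0.28 (limma adjusted p = 0.186), let-7b by -0.19 (0.333) and let-7c by -0.13 (0.489), where the values in brackets are limma adjusted p. The Dlk1-Dio3 cluster, the largest list, had 52 of 107 members tested, 1 called (miR-299*), 8 higher and 3 lower in each cortex and a median of 0.01. Its members miR-494 and miR-3072* differed by -0.35 and -0.32. These are to be read beside the 9.49% higher, 12.7% lower and 2.85% called among all miRNAs tested. Among miRNAs that stay in the test, leaving out an array can only keep or raise the number without overlap. Without cortex 3, 24 members of this cluster (46.2%) were higher in each cortex and 6 (11.5%) lower, beside 27.6% and 18.7% of all miRNAs tested without that array.

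Of the other families, miR-30b and miR-30d differed by 0.23 and 0.15, and the median of the 10 members tested was 0.04. miR-16 (0.22) and miR-24 (0.18) were higher in each cortex, at limma adjusted p of 0.284 and 0.276. miR-497 (-0.16) and miR-195 (-0.12), of 1 cluster, were lower on average with overlap. miR-222 and miR-221, which share a seed, differed by 0.17 and 0.13. The 5 tested members of the miR-181 family had a median of -0.09, with miR-181d at -0.14, miR-181b at -0.13 and miR-181c at -0.09. In the cluster from miR-17 to miR-92 and its paralogs, miR-25, miR-92a and miR-20a differed by -0.10, -0.10 and -0.05, and in the clusters of miR-23, miR-27 and miR-24, miR-23a and miR-23b by 0.10 and 0.09.

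The lists of astrocyte-rich, vascular and immune miRNAs had 0 calls among 6, 3 and 6 members tested, beside 2.85% of all miRNAs tested. In the miR-29 family, rich in astrocytes, miR-29c* differed by -0.19 (limma adjusted p = 0.221), miR-29b-1* by -0.11 and miR-29b by 0.08, and none of these overlapped. Among all miRNAs tested, 9.49% were higher and 12.7% lower in cortex without overlap. miR-126-3p, made in endothelium from the gene Egfl7, differed by 0.06, and miR-143, of smooth muscle, by 0.11. miR-21 (-0.19) and miR-142-3p (-0.18) were lower and miR-150 (0.38) higher on average in cortex, all with overlap and limma adjusted p between 0.379 and 0.661. In the Sfmbt2 cluster miR-466h-3p differed by 0.27, miR-669p* by 0.13 and miR-466i-5p by 0.06. Of the Hox cluster miRNAs, among them miR-10a and miR-10b, which mark the hindbrain and spinal cord, 0 of 11 were detected on 2 arrays of either tissue. The 3 tested miRNAs from the intron of the serotonin receptor gene Htr2c, among them miR-764-5p and miR-1298, were at the floor on all arrays.

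The same contrast in the other mice came from other arrays. In each of the other groups of genotype and age, too, no slide held both tissues, so slide and tissue cannot be told apart there. At 17 months, limma called 6 miRNAs in WT mice (1.81% of 332), at 10 months 1 in Tg2576 mice (0.27% of 370), and at 17 months 25 in Tg2576 mice (7.62% of 328). miR-211* was lower in each cortex in all 3 groups. It differed by -1.70 in Tg2576 mice of 10 months (limma adjusted p = 0.368) and by -2.20 at 17 months (limma adjusted p = 0.0589). In WT mice of 17 months it was above background in 0 of 3 cortices and in 3 of 3 whole brains, which were at least 4.37-fold higher (limma adjusted p = 0.00841). miR-690 differed by -0.93 in WT mice of 17 months (limma adjusted p = 0.0572), and by -1.03 and -1.38 in Tg2576 mice of 10 and 17 months, where it was called (limma adjusted p = 0.00609 and 0.0429).

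Of the 6 miRNAs higher in cortex, miR-193b had values of 0.40, 0.23 and 0.32 and no overlap in the WT mice of 17 months and the Tg2576 mice of 10 and 17 months. miR-299* had 0.24, 0.12 and 0.18, also without overlap. miR-328 and miR-139-5p were near 0 in the Tg2576 mice of 17 months, at 0.11 and 0.05, and higher in the other groups. miR-125a-5p had 0.07 with overlap in the WT mice of 17 months and 0.25 without overlap in the Tg2576 mice of 10 months. In the Tg2576 mice of 17 months it was lower in each cortex, by -0.10 (limma adjusted p = 0.38). miR-129-1-3p had 0.02, -0.03 and 0.09, so its separation was seen only in the WT mice of 10 months among these 4 groups, though the change with age (0.36, limma adjusted p = 0.367) and with genotype (0.42, limma adjusted p = 0.672) did not pass the test. Tested as an interaction, the tissue difference changed with age in WT mice for 2 of 334 miRNAs (0.599%) and with genotype at 10 months for 0 of 371 (0%), with 26 at an unadjusted p under 0.05 in the latter limma fit.

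**Figure D5:**
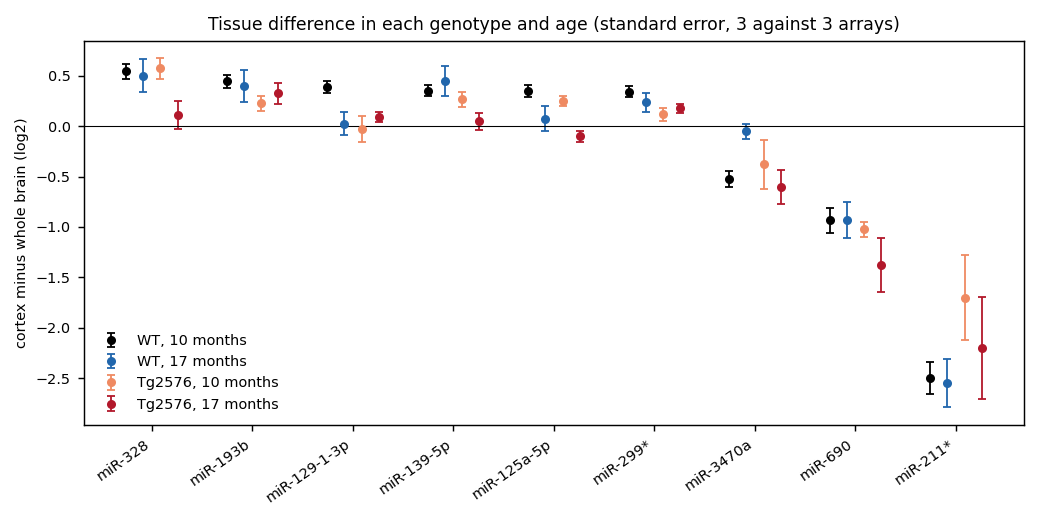
Difference between cortex and whole brain (log2, vertical, with standard errors) of the 9 miRNAs in the WT and Tg2576 mice of 10 and 17 months, each from its own 3 cortex and 3 whole brain arrays. miR-211* and miR-690 lie below 0 in all 4 groups, and miR-129-1-3p lies away from 0 in the WT mice of 10 months.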

How the data were processed

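Per the labels, images were extracted by Agilent Feature Extraction (version 10.7.3.1). The deposited intensity of a spot has its background subtracted and is not normalized between arrays. The log2 values that the authors deposited per miRNA equalled, on the 6 arrays, the log2 total signal minus a constant per array, and were used as an alternative.

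Spots marked as outliers were left out, spots were averaged per probe and probes per miRNA, and each array was divided by its 75th percentile among 402 probes that exceeded background clearly on each of 24 arrays. Values below -5.67 on the log2 scale were set to that floor. miRNAs at the floor on all arrays compared entered with difference 0 and p 1. On the 6 arrays the 75th percentile was 671 to 852 and 293 to 312 mouse miRNAs were detected per array. The number of arrays limits the precision. mRNA values were scaled by the 75th percentile of each array, with the brightest probe of a gene, and were described without a test. 1 marker gene of the cortex list is not reported here.

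Cortex and whole brain (3 arrays each) were compared with limma 3.58.1 in R 4.3.3 and Benjamini-Hochberg adjustment, and the interactions with age and genotype on 12 arrays. The scripts were tested on simulated data. Samples may share animals or handling, and p-values measure only the spread between these samples. Named miRNAs were the 12 largest differences in each direction among those called without overlap, the miR-200 and miR-183 families, the 3 tested members with the largest difference in each of 25 lists, and miR-9, miR-124, miR-128, miR-219-5p, miR-10a and miR-10b. The members, lists and tests were chosen with earlier results of these data known. Alternatives were 3 other scalings, quantile normalization, the authors' values, total signals, normexp, other floors and filters, blocks for replicate and slide, larger models and the methods' t-test, and every array was omitted once. The replicate numbers did not pair the samples by the rule used, since the deviations of same-numbered arrays had correlations over 266 miRNAs of 0.39, -0.65 and 0.43.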

Additional observations from a re-analysis of the deposited data

Results flagged for a closer look

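2 miRNAs had a tissue difference that changed with age in WT mice. For miR-3085-3p the difference was -0.07 at 10 months and 0.64 at 17 months, a change of -0.71 (10 minus 17 months, standard error 0.12, limma adjusted p = 0.0392). For miR-3092 it was -0.08 and 0.80, a change of -0.88 (standard error 0.16, limma adjusted p = 0.0392). Both were at the floor in the 3 cortices of 10 months, where miR-3085-3p was nonetheless detected on 3 and miR-3092 on 2 arrays, and both were detected in 1 of 3 cortices of 17 months. Detection thus ran against the level. The change was called in 0 miRNAs with the slide as a block and in 0 with a floor 2 times higher. The cause was not tested.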

How the results depend on the processing

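The main limits are 3 arrays a tissue, no slide with both tissues of a group of mice, and 3 libraries whose mRNA partners stood apart. The 9 called miRNAs kept their direction in all 25 alternatives, apart from miR-3470a, which was 0 with a floor 2 times higher. miR-211* stayed past the threshold in 23 of them. The number called, 9, was 5 with scaling over all probes, 54 (49 higher, 5 lower) over the arrays compared and 4 (1 higher, 3 lower) by the median. It was 1 with quantile normalization, 1 with no filter, 1 with the replicate block, 0 with the slide as a block, 3 by the methods' t-test (45 before adjustment), 3 with all 12 WT arrays and 14 with all 24. Chosen after seeing the data, a fixed slide block over 24 arrays gave 0, leaving out cortex 1 and whole brain 1 gave 1, and leaving out cortex 3 and whole brain 1 gave 53. Leaving out 1 array gave 1 to 20. The scaling over the arrays compared moved the median difference of all tested miRNAs to 0.09, and the authors' values to 0.16.

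For the change with age, 2 became 4 with all probes, 9 with the authors' values, 217 with normexp, 1 with the lower floor and 0 with the higher floor, no filter, detection on every array, the replicate block or the slide, and 0 to 2 without 1 array. The change with genotype had 0 in these fits and 0 to 10 without 1 array, the 10 without Tg2576 whole brain 1. In WT mice of 17 months, 6 became 1 with all probes, 3 with quantile normalization, 21 with the authors' values, 11 with total signals, 226 with normexp, 15 with the lower floor, 1 with no filter, 12 with detection on every array, 0 with the slide, 0 by the methods' t-test and 1 to 7 without 1 array. In Tg2576 mice of 10 months, 1 became 0 with all probes, the authors' values, the replicate block, the slide or the methods' t-test, 2 with total signals, and 0 to 27 without 1 array, the 27 without whole brain 1. In Tg2576 mice of 17 months, 25 became 204 with all probes, 0 with the median or quantile normalization, 4 with the authors' values or no filter, 10 with total signals, 1 with normexp, 55 with the lower floor, 12 with the replicate block, 9 by the methods' t-test and 0 to 12 without 1 array. The methods' t-test was not run on interactions. The causes were not tested.

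Signs turned only in miRNAs that were not called. Scaling over the arrays compared gave miR-29b-1* at 0.045, miR-451 at 0.0037, miR-144 at 0.011, miR-25 at 0.057, miR-92a at 0.061, miR-20a at 0.11, let-7c at 0.028, miR-181d at 0.020, miR-181b at 0.035, miR-181c at 0.073, miR-497 at 0.0041 and miR-195 at 0.043. Quantile normalization gave miR-29b at -0.15, miR-25 at 0.025 and miR-20a at 0.10. The authors' values gave miR-200c at 0.060, miR-141 at 0.54, miR-29b-1* at 0.053, miR-451 at 0.017, miR-144 at 0.34, miR-25 at 0.070, miR-92a at 0.074, miR-20a at 0.12, let-7c at 0.041, miR-181d at 0.033, miR-181b at 0.048, miR-181c at 0.086, miR-497 at 0.017 and miR-195 at 0.056. Total signals gave miR-144 at 0.18, and normexp gave miR-466i-5p at -0.019. The slide as a block gave miR-219-5p at -0.028, miR-451 at 0.036 and miR-144 at 0.031. The fixed slide block gave miR-126-5p at -0.12, miR-1 at 0.053, miR-494 at 0.051, miR-30c at -0.093, miR-30d at -0.096 and miR-34a at 0.0795. Leaving out cortex 1 and whole brain 1 gave miR-200a at 0.48, miR-200b at 0.51, miR-429 at 0.44, miR-183 at 0.086 and miR-219-5p at -0.17. Leaving out cortex 3 and whole brain 1 gave miR-200a at 1.27, miR-200b at 1.14, miR-141 at 0.19, miR-429 at 1.11, miR-183 at 0.76, miR-96 at 0.37, miR-494 at 0.064 and miR-181b at 0.034. Without 1 array, miR-200a ran from -2.57 to 0.72, miR-200b from -2.30 to 0.70, miR-429 from -2.43 to 0.64, miR-183 from -2.70 to 0.31, miR-219-5p from -0.096 to 0.13, miR-451 from -0.75 to 0.53, miR-144 from -0.60 to 0.46 and miR-466i-5p from -0.026 to 0.17.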

Other observations

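miR-451 was also set side by side over the whole series. In the 12 same-numbered samples of cortex and whole brain, over both genotypes and ages, cortex was lower than whole brain in 12, by -0.44 to -0.03 on the log2 scale, while the values of single arrays ran from -3.61 to 1.22. In 7 of the 12, the whole brain nearest to a cortex within its genotype and age was that of the same number. Whether same-numbered samples came from 1 animal is not stated.

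miR-3473 was named after its values were seen. It had the largest difference among miRNAs that did not overlap and were not called, at -3.63, -3.83 and -4.54 in cortex and -3.02, -2.83 and -2.87 in whole brain (difference -1.09, limma adjusted p = 0.113), and it differed by -0.63, -0.71 and -1.19 in the WT mice of 17 months and the Tg2576 mice of 10 and 17 months. Cortex 3, on another slide than cortex 1 and 2, was the lowest cortex for 176 of 266 miRNAs.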
